A study of Rattus norvegicus with 16 samples.

Results

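Transcripts of 8 cell cycle and proliferation genes were followed in 16 bulk RNA sequencing libraries of cultured primary rat microglia, out of 30560 gene identifiers listed. The genes were chosen by identifier, in the order Mki67 (ENSRNOG00000028137), Top2a (ENSRNOG00000053047), Cdk1 (ENSRNOG00000000632), Ccnb1 (ENSRNOG00000058539), Pcna (ENSRNOG00000021264), Ccnd1 (ENSRNOG00000020918), Cdkn1a (ENSRNOG00000000521) and Myc (ENSRNOG00000004500), and all 8 passed the filter on low counts that left 11902 genes to test. The deposited tables hold identifiers alone. The symbols came with the list of members and were not checked against an Ensembl annotation here. Wild type microglia at day 12 in vitro received lipopolysaccharide (LPS, a bacterial cell wall component that activates Toll-like receptor 4) at 100 ng/ml together with the lipoprotein component apolipoprotein A-I (ApoA-I) at 100 ug/ml, LPS alone, ApoA-I alone, or neither (Control), with 4 libraries in each group. LPS was given for 20 hours. Library totals lay between 12304916 and 17262383 estimated counts. No label says that replicates came from separate animals or cultures, so each p-value reflects library-to-library spread that could be purely technical.

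Cells that divide pass from G1 through DNA synthesis (S phase) and G2 into mitosis, driven by cyclins bound to cyclin-dependent kinases. Ccnd1, encoding cyclin D1, acts in G1 downstream of growth factors and, in macrophages, of colony-stimulating factor 1. Pcna encodes the sliding clamp of DNA polymerases. Top2a, Cdk1, Ccnb1 and Mki67 are made mainly from S phase to mitosis and encode the enzyme that untangles sister chromatids, the mitotic kinase, its cyclin B1 partner, and the Ki-67 protein that coats mitotic chromosomes and marks cycling cells in histology. Cdkn1a encodes p21, an inhibitor of cyclin-dependent kinases, and Myc a transcription factor for growth genes. Microglia proliferate in mixed glial cultures, and LPS is known to arrest macrophages that are driven by colony-stimulating factor 1. In bulk RNA, fewer cycling cells and less transcript per cell cannot be told apart.

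RefSeq promoters (build GRCr8) were found by symbol for 6 of the 8 genes, Mki67, Top2a, Cdk1, Ccnb1, Pcna and Cdkn1a. Those of the 4 genes of S phase to mitosis are shown, with that of Cdkn1a, which moved the other way. The promoter of Pcna was searched but is not shown, although Pcna also moved with the 4 (r = 0.980 with their mean). Each is the 250 bases before the 1 transcript start that the promoter table uses, 5′ to 3′ along the gene. For Mki67, Cdk1 and Cdkn1a that start lies inside the gene's outer annotated bounds, and 250, 41 and 112 bases of their windows fall within the gene. The windows of Top2a and Ccnb1 lie wholly outside it. Capitals mark CCAAT boxes (CCAAT, or ATTGG on the opposite strand), bound by the factor NF-Y, and the letters TTTGAA (or TTCAAA) and TTCGAA of the cell cycle homology region, bound by the complex that represses mitotic genes in resting cells.
Mki67, chr1:199952594-199952843, minus strand: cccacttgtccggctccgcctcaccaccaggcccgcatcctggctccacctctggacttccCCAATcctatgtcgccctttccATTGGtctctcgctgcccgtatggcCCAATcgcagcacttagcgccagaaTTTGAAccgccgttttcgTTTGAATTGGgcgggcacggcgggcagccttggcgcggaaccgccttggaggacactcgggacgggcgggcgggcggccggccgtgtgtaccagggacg
Top2a, chr10:84473094-84473343, minus strand: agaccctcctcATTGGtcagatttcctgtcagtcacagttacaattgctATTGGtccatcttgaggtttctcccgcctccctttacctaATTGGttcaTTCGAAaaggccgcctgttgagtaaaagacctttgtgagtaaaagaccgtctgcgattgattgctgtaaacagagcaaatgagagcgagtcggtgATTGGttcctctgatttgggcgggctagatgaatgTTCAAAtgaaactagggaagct
Cdk1, chr20:19265043-19265292, plus strand: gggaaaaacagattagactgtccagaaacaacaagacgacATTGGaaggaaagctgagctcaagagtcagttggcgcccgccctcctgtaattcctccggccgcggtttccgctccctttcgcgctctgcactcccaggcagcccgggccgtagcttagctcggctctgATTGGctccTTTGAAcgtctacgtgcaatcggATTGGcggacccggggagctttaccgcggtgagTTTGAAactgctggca
Ccnb1, chr2:33655226-33655475, minus strand: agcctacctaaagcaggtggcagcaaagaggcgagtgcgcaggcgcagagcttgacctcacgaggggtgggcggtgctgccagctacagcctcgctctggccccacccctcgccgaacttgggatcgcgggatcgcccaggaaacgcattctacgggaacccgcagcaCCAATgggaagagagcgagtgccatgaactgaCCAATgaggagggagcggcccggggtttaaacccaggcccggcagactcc
Cdkn1a, chr20:7150682-7150931, plus strand: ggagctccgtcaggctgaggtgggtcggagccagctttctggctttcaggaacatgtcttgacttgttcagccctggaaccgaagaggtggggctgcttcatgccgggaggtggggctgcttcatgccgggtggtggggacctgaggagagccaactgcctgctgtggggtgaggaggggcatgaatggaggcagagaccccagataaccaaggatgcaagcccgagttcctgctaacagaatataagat

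A CCAAT box on either strand was found in the promoters of 5 of the 6 genes, against 34.0% of 33469 rat promoters of the same length. Mki67 and Top2a held 4 each, Cdk1 3, Ccnb1 2, Pcna 1 and Cdkn1a 0. A share of 2.52% of all promoters held 3 or more. TTTGAA or TTCGAA was found in 3 of the 6, Mki67, Top2a and Cdk1, all of which also held a CCAAT box; 6.31% of all promoters held both. TTTGAA alone was in 16.2% and TTCGAA in 1.40% of all promoters. No other letters of the cell cycle homology region were searched, so Ccnb1, Pcna and Cdkn1a may hold another form of it. TTTAAA, present in the printed Ccnb1 window, was not searched or marked, and its share of all promoters was not counted. Counted from the start that the table uses, the TTCAAA of Top2a began 22 bases before it, the nearer TTTGAA of Cdk1 16 bases and that of Mki67 99 bases. The last 2 lie inside the outer bounds of their genes. In Mki67 that match shared 1 base with a CCAAT box. The E2F letters TTTCGCGC, in 0.248% of promoters, were found in Cdk1, and TTTGGCGC, in 0.412%, in 0 of the 6. The GC box GGGCGG, in 30.5% of promoters, was found 4 times in Mki67, 1 time each in Top2a, Cdk1, Ccnb1 and Pcna and 0 times in Cdkn1a. TATAAA (12.9% of promoters) and the E box CACGTG (5.59%) were found in 0 of the 6. These matches describe letters in these windows and do not show that a factor binds. Promoters at other starts of these genes, Cdkn1a among them, were not searched, so a count of 0 holds for the window alone.

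LPS against Control asked how the cells' transcripts respond to LPS. With LPS, 7 of the 8 genes fell and 1, Cdkn1a, rose. The fall was deepest in the 4 genes of S phase to mitosis, which kept 2.23% to 7.89% of their Control level, and in Ccnd1, which kept 7.13%. Pcna kept 26.0% and Myc 54.2%, while the level of Cdkn1a was 348% of that in Control libraries. LPS lowered 38.4% and raised 36.3% of all tested genes, 74.7% in all, so that a call by itself is common in this comparison. The median log2 change was -3.74 over the 8 genes and -0.04 over all genes, where rises and falls offset each other. By absolute change among the 11902 genes, Top2a, Cdk1 and Mki67 ranked 203, 282 and 310, and Ccnd1 and Ccnb1 542 and 581. Pcna, Cdkn1a and Myc ranked 1684, 1868 and 4132, so an uncommon size was not shared by all 8. Levels below are CPM, each gene's share of a library's counts scaled by TMM (the trimmed mean of M-values), unless TPM is named. A gene is called where the quasi-likelihood F test of edgeR gives it an adjusted p under 0.05, with all tested genes in the adjustment.

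Among the genes of S phase to mitosis, Top2a had 2.73, 2.66, 4.58 and 2.41 CPM in LPS libraries 1 to 4, against 145, 139, 145 and 127 CPM in Control libraries. Its log2 fold change was -5.46 (SE 0.13, adjusted p = 8.74e-20), a 43.9-fold fall and the largest of the 8. Cdk1 had 1.04, 1.80, 1.26 and 1.33 CPM in LPS libraries, against 46.6, 40.3, 43.7 and 37.6 CPM in Control libraries. These are 11 to 19 counts per LPS library, the lowest counts of the 8 genes. The log2 fold change of Cdk1 was -4.95 (SE 0.14, adjusted p = 8.81e-19). Mki67 had 2.83, 3.41, 2.95 and 4.33 CPM in LPS libraries, against 104, 82.7, 85.0 and 91.9 CPM in Control libraries. The fall was 26.8-fold (log2 fold change -4.74, SE 0.18, adjusted p = 1.82e-16). Ccnb1 had 5.28, 3.60, 3.69 and 3.91 CPM in LPS libraries, against 55.1, 48.2, 57.4 and 48.4 CPM in Control libraries. Its 12.7-fold fall (log2 fold change -3.67, SE 0.11, adjusted p = 5.02e-18) was the smallest of these 4. Its approximate 95% interval of -3.91 to -3.44 lay apart from those of Mki67 (-5.11 to -4.38), Cdk1 (-5.24 to -4.67) and Top2a (-5.73 to -5.18). Such SEs and intervals can be too narrow where the LPS counts are low, as in Cdk1. In all 4 genes every LPS library lay below every Control library, in a comparison that called 74.7% of all tested genes. The share of all genes whose groups lay apart in this way was not counted, here or for the genes below.

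**Figure D1:**
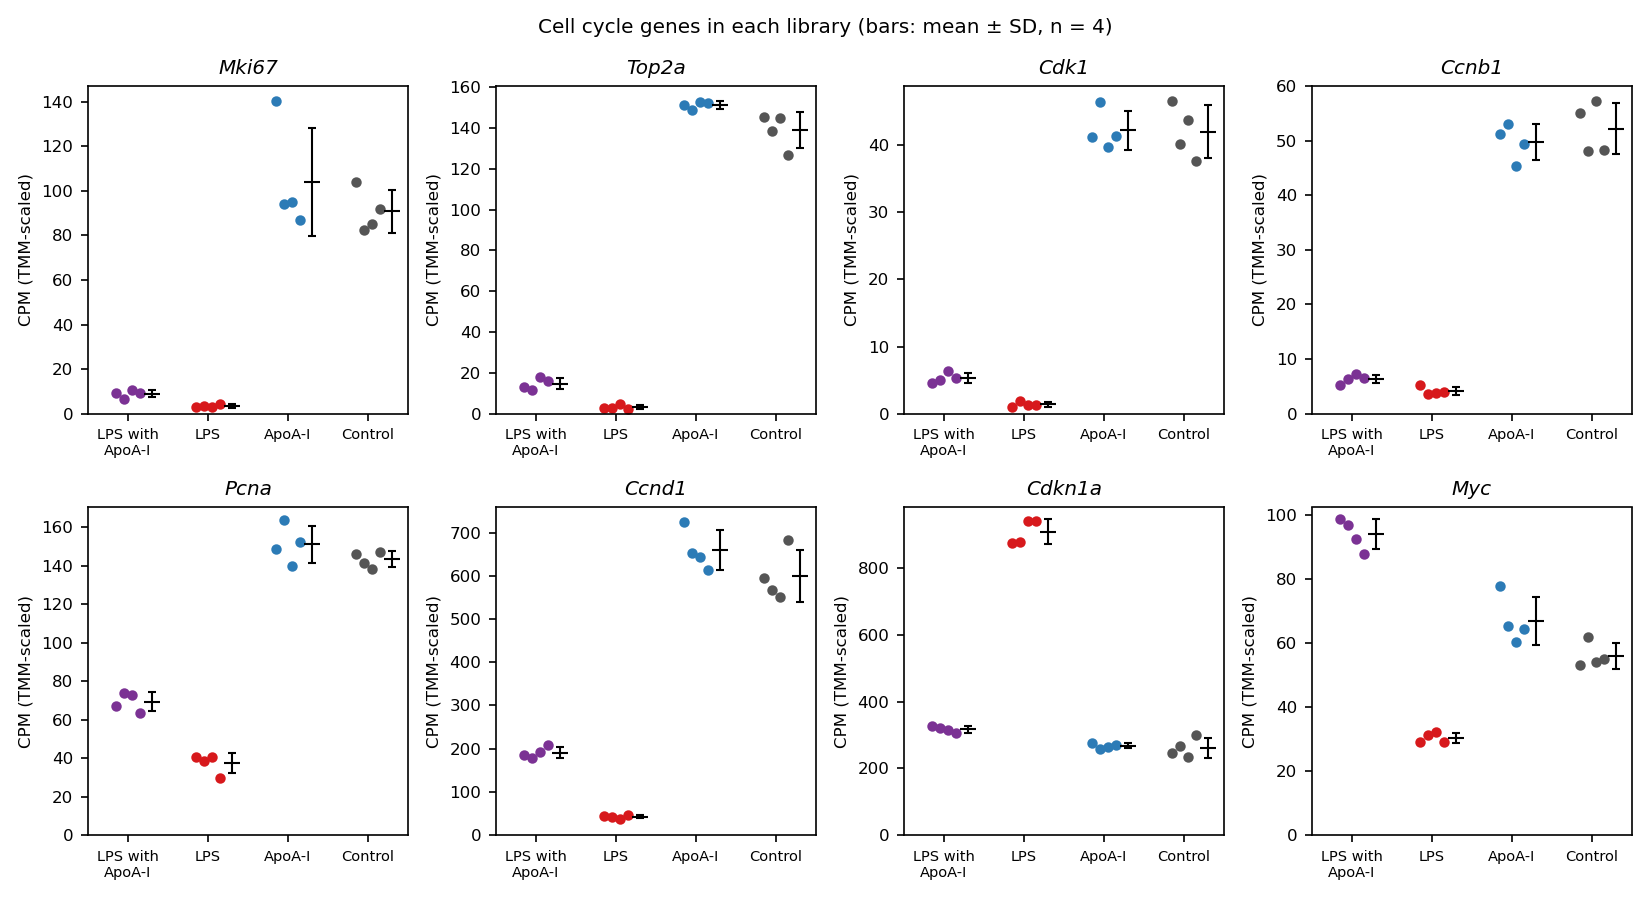
CPM (TMM-scaled, linear axes from 0) of the 8 genes in each of the 16 libraries by group, with the mean and SD of 4 libraries beside the points. LPS libraries are the lowest group for every gene except Cdkn1a, where they are the highest, and LPS with ApoA-I libraries lie above LPS libraries for 7 genes.

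With ApoA-I added to LPS, 7 of the 8 genes rose relative to LPS alone and Cdkn1a fell. This comparison raised 26.4% and lowered 24.9% of all tested genes. The median log2 change was 1.51 over the 8 genes and 0.03 over all genes. Each gene moved opposite to its LPS response, but the LPS libraries enter both comparisons with opposite sign, so the directions are not independent of each other. Top2a had 13.0, 11.6, 17.7 and 15.9 CPM in LPS with ApoA-I libraries, against the 2.41 to 4.58 CPM of LPS libraries (log2 fold change 2.20, SE 0.16, adjusted p = 1.24e-10). Cdk1 had 4.55, 4.98, 6.38 and 5.32 CPM in LPS with ApoA-I libraries, against 1.04 to 1.80 CPM with LPS (log2 fold change 1.97, SE 0.18, adjusted p = 5.79e-09). The rise was thus about 4-fold in both, at 4.60-fold for Top2a and 3.92-fold for Cdk1. Mki67 had 9.27, 6.60, 10.4 and 9.18 CPM in LPS with ApoA-I libraries, against 2.83 to 4.33 CPM with LPS (log2 fold change 1.38, SE 0.22, adjusted p = 2.02e-05). Ccnb1 had 5.30, 6.27, 7.26 and 6.49 CPM in LPS with ApoA-I libraries, against 3.60 to 5.28 CPM with LPS (log2 fold change 0.63, SE 0.14, adjusted p = 0.000730). Ccnb1 rose the least, 1.55-fold, and its lowest LPS with ApoA-I library exceeded the highest LPS library by 5.30 against 5.28 CPM. On log2(TPM + 1), where the added 1 exceeds the LPS level of Mki67, the changes were 0.64 for Mki67 and 1.45 for Top2a (limma adjusted p = 0.00146 and 8.71e-09). On log2(TPM + 0.1) they were 1.34 and 2.25 (limma adjusted p = 1.90e-05 and 2.93e-09).

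With both agents these 4 genes stayed far below the Control level. LPS with ApoA-I libraries held 9.76% of the Control level for Mki67, 10.5% for Top2a, 12.6% for Cdk1 and 12.1% for Ccnb1. The log2 fold changes of LPS with ApoA-I against Control were -3.36 (SE 0.15), -3.26 (SE 0.10), -2.98 (SE 0.10) and -3.04 (SE 0.10) in that order, with adjusted p-values from 2.52e-17 to 6.92e-15. The 4 genes, which differed in how far they fell with LPS alone, thus lay between 9.76% and 12.6% of the Control level with LPS and ApoA-I. In this comparison 6 of the 8 genes fell and 2 rose, while 35.2% of all tested genes fell and 34.4% rose.

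Pcna, the replication clamp gene, was the least reduced of the S phase and mitosis genes. It had 66.9, 74.1, 73.0 and 63.6 CPM in LPS with ApoA-I libraries, 40.6, 38.5, 40.4 and 29.8 CPM in LPS libraries, 149, 164, 140 and 152 CPM in ApoA-I libraries, and 146, 141, 139 and 147 CPM in Control libraries. The groups with LPS lay apart from each other and from those without. LPS lowered Pcna 3.84-fold (log2 fold change -1.94, SE 0.08, adjusted p = 7.42e-16). ApoA-I in LPS-treated cells raised it 1.86-fold (log2 fold change 0.90, SE 0.08, adjusted p = 4.04e-09), to 48.4% of the Control level.

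Ccnd1, the G1 cyclin gene, was the most abundant of the 8 in untreated cells and recovered further than the mitotic genes. It had 186, 178, 191 and 208 CPM in LPS with ApoA-I libraries and 44.9, 42.5, 37.1 and 46.5 CPM in LPS libraries. ApoA-I libraries had 724, 654, 644 and 615 CPM and Control libraries 596, 566, 551 and 684 CPM. The ranges of ApoA-I and Control libraries overlapped, and the other pairs did not. LPS lowered Ccnd1 14.0-fold (log2 fold change -3.81, SE 0.08, adjusted p = 1.52e-20). With ApoA-I added to LPS it was 4.47-fold higher than with LPS alone (log2 fold change 2.16, SE 0.08, adjusted p = 2.75e-15), at 31.9% of the Control level.

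Cdkn1a, encoding p21, was the one gene of the 8 that LPS raised. It had 328, 321, 314 and 305 CPM in LPS with ApoA-I libraries, 877, 877, 941 and 943 CPM in LPS libraries, 276, 259, 265 and 270 CPM in ApoA-I libraries, and 247, 266, 233 and 301 CPM in Control libraries. Every LPS library lay far above the highest library of any other group. LPS raised Cdkn1a 3.48-fold (log2 fold change 1.80, SE 0.06, adjusted p = 3.71e-17), and ApoA-I in LPS-treated cells lowered it 2.87-fold (log2 fold change -1.52, SE 0.06, adjusted p = 8.25e-15). Relative to Control, LPS with ApoA-I libraries were higher by 0.28 log2 units with TMM (SE 0.06, adjusted p = 0.000340), but this small difference depended on the scaling: it was 0.04 with library totals alone (adjusted p = 0.643) and -0.0027 on log2(TPM + 1) in limma (adjusted p = 0.977). Relative to ApoA-I alone it was 0.24 with TMM (SE 0.06, adjusted p = 0.00115), -0.05 with library totals (adjusted p = 0.601) and -0.12 on log2(TPM + 1) (adjusted p = 0.196). In TPM, Cdkn1a averaged 318 ± 8.81 in LPS with ApoA-I, 346 ± 27.2 in ApoA-I and 321 ± 39.7 in Control libraries (SD, n = 4 each). The sign of the difference between Cdkn1a with both agents and its level without LPS thus depended on the scaling or measure used.

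Myc behaved unlike the other 7 in that its level with both agents was the highest of the 4 groups. It had 98.8, 97.1, 92.7 and 88.0 CPM in LPS with ApoA-I libraries, 29.2, 31.2, 32.1 and 28.9 CPM in LPS libraries, 77.8, 65.5, 60.5 and 64.3 CPM in ApoA-I libraries, and 53.05, 62.0, 54.2 and 55.0 CPM in Control libraries. LPS lowered Myc 1.84-fold (log2 fold change -0.88, SE 0.08, adjusted p = 6.83e-10). ApoA-I in LPS-treated cells raised it 3.10-fold (log2 fold change 1.63, SE 0.08, adjusted p = 9.17e-14), to 168% of the Control level. Against Control, LPS with ApoA-I was higher by 0.75 log2 units (SE 0.07, adjusted p = 3.80e-09), and by 0.45 on log2(TPM + 1) (limma adjusted p = 0.000202). Against ApoA-I alone the difference was 0.49 with TMM (SE 0.07, adjusted p = 2.39e-06), 0.20 with library totals (adjusted p = 0.0408) and 0.13 on log2(TPM + 1), where it was not called (limma adjusted p = 0.183) and the groups overlapped in TPM.

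**Figure D2:**
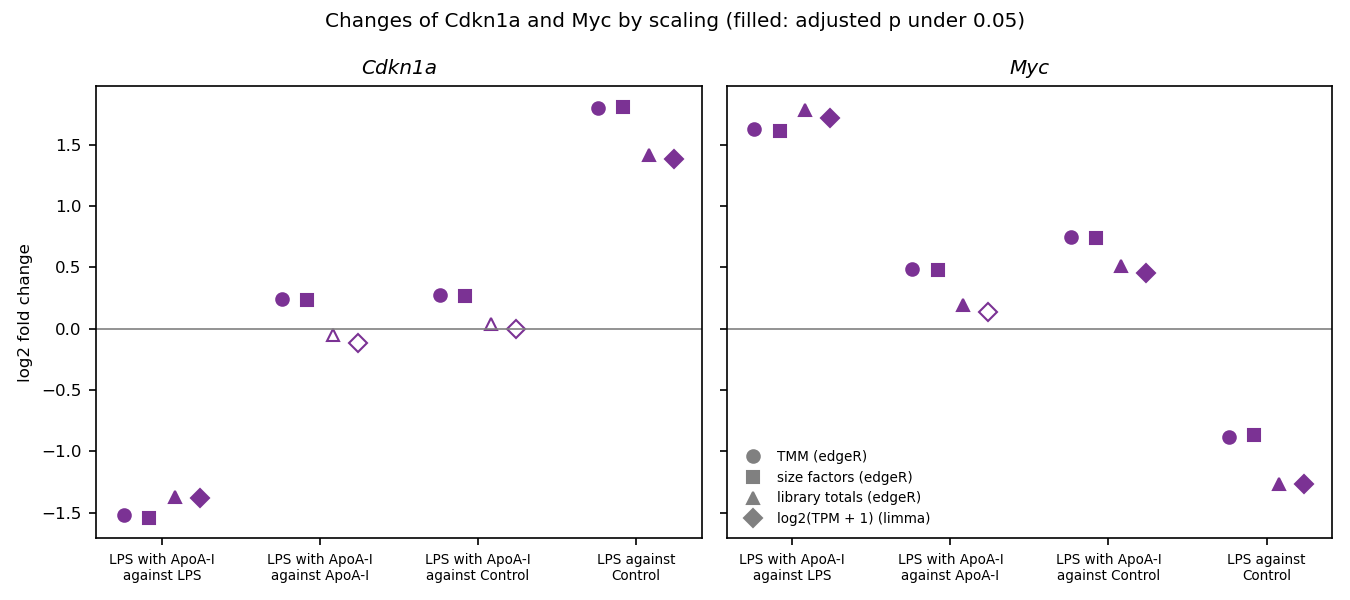
Log2 fold changes of Cdkn1a and Myc in 4 comparisons under TMM, size factor and library total scaling in edgeR and on log2(TPM + 1) in limma; filled symbols have an adjusted p under 0.05. The changes between LPS with ApoA-I and LPS, and between LPS and Control, keep their sign in all 4, while those of Cdkn1a against ApoA-I and Control, 0.24 and 0.28 with TMM, are at or near 0 with library totals and TPM.

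The median change of all genes also differed between these settings. The limma fits differ from the edgeR fits in measure and model too, so for them the part of the scaling in these shifts was not tested. In LPS against Control the median change of all genes was -0.42 log2 units with library totals and -0.37 on log2(TPM + 1), against -0.04 with TMM. The corresponding medians were 0.18, 0.13 and 0.03 when LPS with ApoA-I was set against LPS, -0.30, -0.30 and -0.01 when set against ApoA-I, and -0.24, -0.25 and -0.01 when set against Control. Of all genes called, the share that was higher with LPS than in Control libraries reached 48.6% under TMM, 25.5% under library totals and 23.6% in the limma fit to log2(TPM + 1). That share was 51.4%, 71.8% and 69.9% for both agents over LPS, 49.8%, 26.7% and 22.4% for both over ApoA-I, and 49.4%, 31.2% and 27.7% for both over Control, in the same order of scalings. For ApoA-I over Control it was 58.5%, 83.1% and 81.6%, and the positive share of called interactions was 50.7%, 65.1% and 60.4%. For all 8 genes the sign of the LPS effect, and that of ApoA-I in LPS-treated cells, held under each scaling.

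ApoA-I without LPS left 7 of the 8 genes without a call. It changed 4.27% of all tested genes, with 2.50% higher, but this background is uncertain: the 508 genes called were 94 to 806 under other settings, with 94 in the fit to these 8 libraries alone and 806 in DESeq2. The count was 186 without ApoA-I 1, 284, 325 or 202 without Control 1, 2 or 3, and 775 without Control 4. Myc alone was called, at 0.26 log2 units higher than in Control (SE 0.07, adjusted p = 0.0437), and it was also the 1 gene of the 8 with an unadjusted p under 0.05. The Myc ranges of the groups overlapped, and the call was lost in 14 of 24 alternatives, among them the fit to these 8 libraries alone (adjusted p = 0.143) and the fits without Control 1, 3 or 4 (0.118, 0.132 and 0.0568) or without ApoA-I 1 or 2 (0.193 and 0.0520). It was also lost without LPS 1 or 2, or any one LPS with ApoA-I library, with adjusted p-values of 0.0509 to 0.0572 and a log2 fold change of 0.26. Mki67 had 140, 94.1, 95.04 and 86.9 CPM in ApoA-I libraries, against 104, 82.7, 85.0 and 91.9 CPM in Control libraries, with a log2 fold change of 0.20 (SE 0.12, adjusted p = 0.399) that was 0.02 without ApoA-I 1, the library with 140 CPM. Top2a had 151, 149, 153 and 152 CPM in ApoA-I libraries, all above the 127 to 145 CPM of Control libraries, yet its change of 0.12 log2 units was not called (SE 0.09, adjusted p = 0.477). For the other genes the 95% intervals of the log2 change ran from -0.17 to 0.18 for Cdk1, -0.24 to 0.10 for Ccnb1, -0.07 to 0.22 for Pcna, -0.01 to 0.28 for Ccnd1 and -0.09 to 0.16 for Cdkn1a. Changes larger than these bounds lie outside the intervals. A missing call does not show that the levels were equal.

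**Figure D3:**
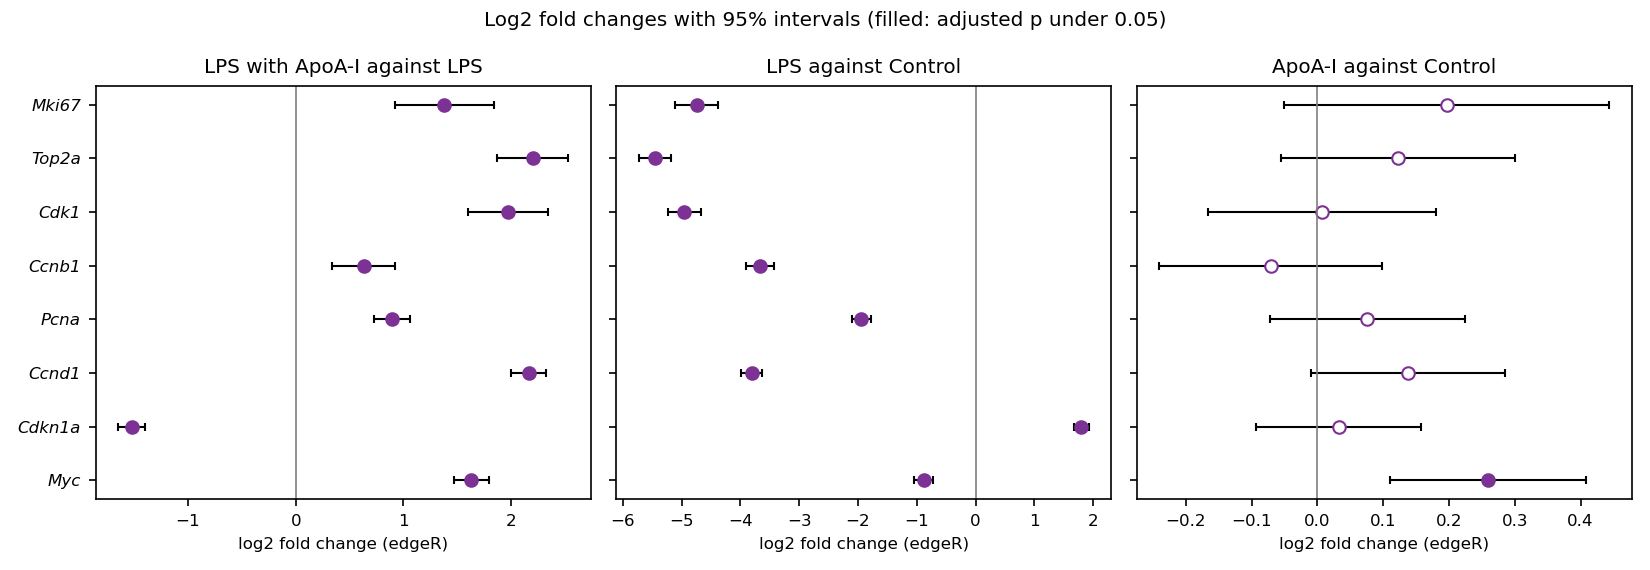
Log2 fold changes of the 8 genes with approximate 95% intervals in LPS with ApoA-I against LPS, LPS against Control, and ApoA-I against Control. The panels have different horizontal scales, and filled points have an adjusted p under 0.05. In the first panel 7 genes lie above 0 and in the second 7 lie below it, and in the third Myc, at 0.26, is the one filled point.

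The response to LPS in the presence of ApoA-I, LPS with ApoA-I against ApoA-I, uses no library of LPS against Control. In it 6 of the 8 genes fell and 2, Cdkn1a and Myc, had higher values with TMM, while 34.8% of all tested genes fell and 34.5% rose. The log2 fold changes were -3.56 for Mki67 (SE 0.15), -3.38 for Top2a (SE 0.10), -2.99 for Cdk1 (SE 0.11), -2.97 for Ccnb1 (SE 0.10), -1.12 for Pcna (SE 0.07) and -1.79 for Ccnd1 (SE 0.07). Set beside the response without ApoA-I, these are 0.750 of the log2 change for Mki67, 0.619 for Top2a, 0.603 for Cdk1, 0.808 for Ccnb1, 0.578 for Pcna and 0.469 for Ccnd1. Cdkn1a had 0.136 of its response, and that of Myc had the opposite sign; these last values, from differences that turn on the scaling, are the least certain.

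The interaction, which tests whether the LPS response differed with and without ApoA-I, was called in all 8 genes, with 7 positive and 1 negative. It was positive in 20.8% and negative in 20.2% of all tested genes. In log2 units it was 2.08 for Top2a (SE 0.18, adjusted p = 7.83e-09), 2.02 for Ccnd1 (SE 0.11, adjusted p = 3.09e-12), 1.96 for Cdk1 (SE 0.20, adjusted p = 7.25e-08) and 1.37 for Myc (SE 0.10, adjusted p = 8.13e-10). The values were 1.18 for Mki67 (SE 0.25, adjusted p = 0.000757), 0.82 for Pcna (SE 0.11, adjusted p = 2.44e-06), 0.70 for Ccnb1 (SE 0.16, adjusted p = 0.00150) and -1.55 for Cdkn1a (SE 0.09, adjusted p = 6.45e-12). On log2(TPM + 1) that of Mki67 was 0.41 and not called (limma adjusted p = 0.139), and that of Top2a was 1.26 (limma adjusted p = 8.35e-06). With 0.1 added to TPM in place of 1, they were 1.10 and 2.05, both called (limma adjusted p = 0.00467 and 1.62e-06).

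**Figure D4:**
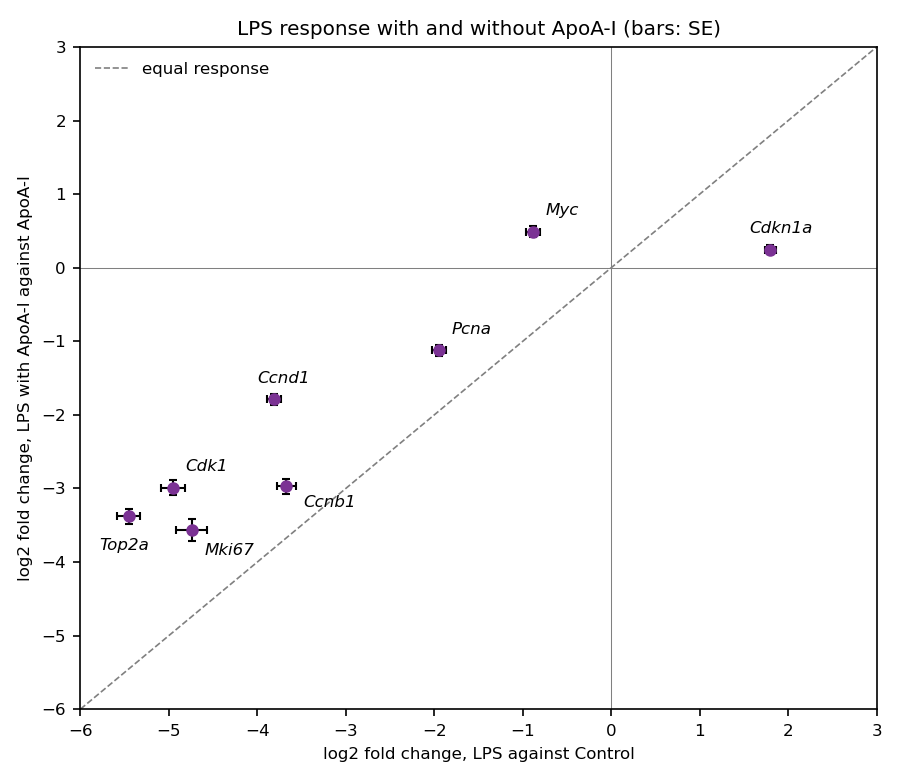
Log2 fold change of the 8 genes in LPS with ApoA-I against ApoA-I (vertical) plotted against that in LPS against Control (horizontal), with approximate SEs. The dashed line marks equal responses. The 7 genes that LPS lowered lie above the line, Ccnb1 nearest to it, and Cdkn1a lies below it at 1.80 and 0.24.

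Levels of different genes were set side by side in TPM, which is per transcript length. In Control libraries the order was Ccnd1 (618 ± 67.2 TPM), Cdkn1a (321 ± 39.7), Pcna (195 ± 10.3), Cdk1 (63.6 ± 6.32), Ccnb1 (53.3 ± 2.61), Myc (43.9 ± 4.70), Top2a (42.2 ± 3.14) and Mki67 (15.1 ± 1.74; SD, n = 4 each). The ranges of Ccnb1 and Myc, and of Myc and Top2a, overlapped. With LPS alone Cdkn1a was first at 833 ± 62.2 TPM, followed by Pcna (37.6 ± 3.70) and Ccnd1 (32.9 ± 4.79), whose ranges overlapped. Next came Myc (17.7 ± 0.691), Ccnb1 (2.92 ± 0.741), Cdk1 (1.53 ± 0.367), Top2a (0.693 ± 0.205) and Mki67 (0.420 ± 0.106; SD, n = 4 each). Ccnb1 thus stood above Cdk1 with LPS and below it in Control libraries. The Control ranges lay only just apart, with a lowest Cdk1 of 55.91 and a highest Ccnb1 of 55.32 TPM. With LPS and ApoA-I the order was Cdkn1a (318 ± 8.81), Ccnd1 (161 ± 12.7), Pcna (77.2 ± 5.67), Myc (60.4 ± 2.68), Cdk1 (6.56 ± 1.06), Ccnb1 (5.06 ± 1.15), Top2a (3.64 ± 0.744) and Mki67 (1.22 ± 0.237; SD, n = 4 each). In that group the ranges of Cdk1 and Ccnb1, and of Ccnb1 and Top2a, overlapped. ApoA-I libraries kept Ccnd1 (716 ± 70.8), Cdkn1a (346 ± 27.2) and Pcna (216 ± 9.37) as the leading genes (SD, n = 4 each).

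**Figure D5:**
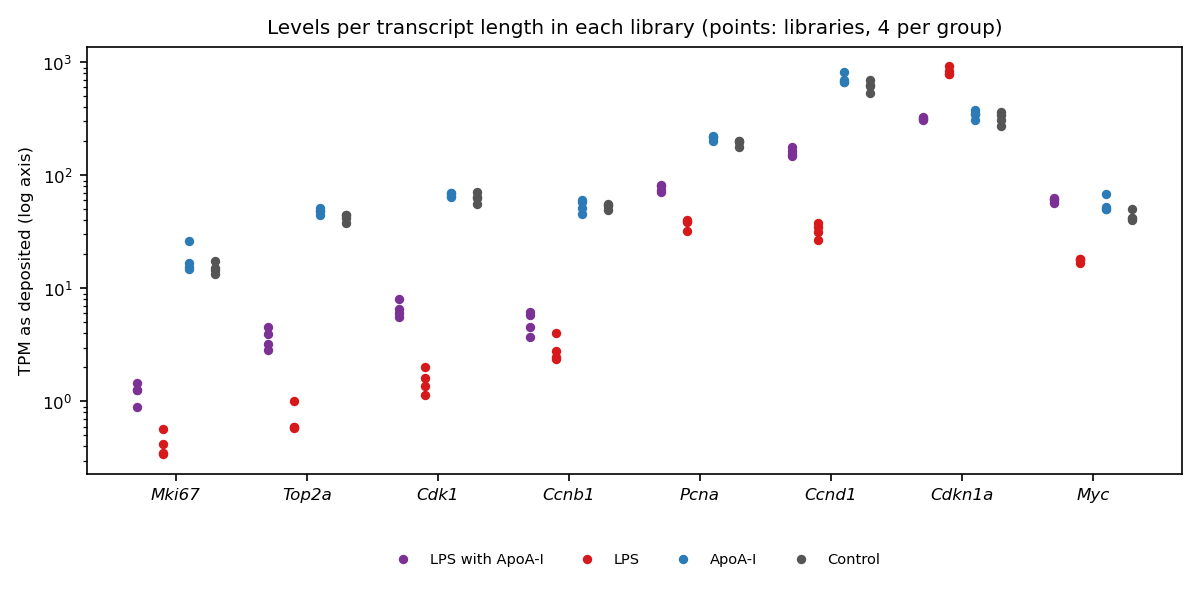
Deposited TPM of the 8 genes on a log axis, with 1 point per library and the groups side by side for each gene. Ccnd1 is the highest gene in the ApoA-I and Control libraries and Cdkn1a in both groups with LPS.

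The ratio of estimated count to TPM gives each gene's effective transcript length relative to the others. It was 9.08 times that of Cdk1 for Mki67 and 4.98 times for Top2a, and 1.11 to 1.93 times for the other 5. Ccnb1 varied most from library to library. For Ccnb1 the length was 0.745 ± 0.0837 in LPS with ApoA-I, 0.758 ± 0.0529 in LPS, 0.694 ± 0.0523 in ApoA-I and 0.697 ± 0.0247 in Control libraries, on a scale where the median gene of 3904 abundant ones is 1 (SD, n = 4 each). Its TPM thus also moved with the transcript length assigned to it, and in TPM its LPS with ApoA-I and LPS ranges overlapped, unlike in CPM. None of the 128 values of the 8 genes in the count table was fractional, by a tolerance of 0.005, while 3.24% of all values were.

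Over all 16 libraries, the mean of Mki67, Top2a, Cdk1 and Ccnb1 (log2 CPM, each centred and scaled) had a Pearson's r of 0.980 with Pcna, 0.967 with Ccnd1, 0.401 with Myc and -0.847 with Cdkn1a. These r values include the differences between groups, among them that between libraries with and without LPS, whose share was not tested. Such a likeness was common: 1079 of 11894 other genes had an r over 0.95. The most alike were ENSRNOG00000022067 (r = 0.998), with 0.596 ± 0.106 CPM in LPS with ApoA-I, 0.0208 ± 0.0416 in LPS, 25.2 ± 0.273 in ApoA-I and 22.2 ± 3.74 in Control libraries, and ENSRNOG00000025094 (r = 0.997), with 4.61 ± 0.654, 1.18 ± 0.302, 80.9 ± 5.21 and 72.3 ± 4.95 CPM in the same order (SD, n = 4 each). The most opposite was ENSRNOG00000016575 (r = -0.999), with 528 ± 15.6 CPM in LPS with ApoA-I, 1065 ± 35.9 in LPS, 135 ± 7.62 in ApoA-I and 140 ± 4.14 in Control libraries (SD, n = 4 each), followed by ENSRNOG00000018971 (r = -0.998). With the group means removed, the 6 pairs among the 4 genes had r from -0.02 to 0.32 over the 16 libraries, and the 28 pairs among all 8 from -0.49 to 0.59, the highest for Mki67 and Ccnd1.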

How the data were processed

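RNA was sequenced in 16 libraries; the labels give total RNA and a column extraction kit. The authors deposited estimated counts (expected counts as RSEM gives them) and TPM per gene, 1 column per library, all 16 of which were used. The submitters' processing notes name cutadapt 1.8.1, STAR 2.7.10b, RSEM 1.3.1 and the mouse build mm10, although the 30560 identifiers are Ensembl rat ones. Which rat annotation was used: not given in the sources used here. A mismatch could change single genes' counts.

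Deposited estimated counts were rounded to whole numbers, and filterByExpr (minimum count 10) kept 11902 genes. One fit of edgeR 4.0.16 (R 4.3.3) with TMM, 4 group means and the quasi-likelihood F test covered all 16 libraries (12 residual degrees of freedom). The Benjamini-Hochberg adjustment took in every tested gene (threshold 0.05). Each SE is the size of the log2 fold change over the root of its F value. CPM are per effective library size, and correlations used log2 CPM with a prior count of 2. Alternatives were DESeq2 1.42.0, limma 3.58.1 on log2(TPM + 1) or log2(TPM + 0.1), 2 other scalings, no filter, the compared groups alone, a replicate block and leaving out each library. The code was tested on simulated data.

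The members and lists were chosen with earlier results of these data known. The RefSeq table (GRCr8) gives an Ensembl identifier for 0 of 47357 genes, so lists of other cell cycle genes and of cell type markers could not be counted, and the labelled cell type was not checked against its markers. All 8 members are named, with the 2 identifiers most like and the 2 most unlike the mean of Mki67, Top2a, Cdk1 and Ccnb1. Promoter motifs were searched on both strands of the 250 bases before each start that the RefSeq promoter table uses. Equal replicate numbers do not mark a shared culture in the labels, so no pairing was assumed.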

Additional observations from a re-analysis of the deposited data

Results flagged for a closer look

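Of 32 sets of 4 libraries (8 genes in 4 groups), 2 held a library far from the other 3 by Dixon's criterion, where chance gives about 1 in 20. Mki67 had 140 CPM in the library ApoA-I 1, against 86.9 to 95.04 CPM in the other ApoA-I libraries. Without it the interaction of Mki67 was 1.36 log2 units (edgeR adjusted p = 6.89e-06). ApoA-I 1 was also the highest ApoA-I library for Ccnd1 (724 CPM), Cdkn1a (276 CPM) and Myc (77.8 CPM), but not for Top2a, Cdk1, Ccnb1 or Pcna. Top2a had 4.58 CPM in the library LPS 3, against 2.41 to 2.73 CPM in the other LPS libraries. Without it the fall of Top2a with LPS was -5.74 log2 units and its rise with ApoA-I 2.48.

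Of all tested genes, 20.8% had a positive and 20.2% a negative call for the interaction. The response to LPS differed with and without ApoA-I in all 8 genes by the interaction test. The log2 values were 2.08 for Top2a, 2.02 for Ccnd1, 1.96 for Cdk1, 1.37 for Myc, 1.18 for Mki67, 0.82 for Pcna, 0.70 for Ccnb1 and -1.55 for Cdkn1a. The direction held in all 23 alternatives for each gene, and the call in all but 1 of them for Mki67.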

How the results depend on the processing

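Each of 48 member results (8 genes, 6 comparisons) was recomputed under up to 24 alternatives. Of the 1144 values, 1115 kept their direction and side of the threshold, 18 lost the call with the same sign and 11 changed sign, 5 of which lost the call too, so that 23 lost the call in all. All 8 genes stayed called in every alternative for LPS against Control and LPS with ApoA-I against LPS, the members' count was at least 7 for the interaction and LPS with ApoA-I against Control, and at least 6 against ApoA-I. For ApoA-I against Control the count of all genes called was 508, and 806 with DESeq2, 310 on log2(TPM + 1), 238 on log2(TPM + 0.1) and 94 with those groups alone. Leaving out 1 library gave 186 (ApoA-I 1 left out) to 775 (Control 4 left out), with 284, 325 and 202 when Control 1, 2 or 3 was dropped, and 0 to 1 members called; the members' count was 0 on both TPM scales and with those groups alone. The changes of sign there were in values near 0: Ccnb1 was 0.011 on log2(TPM + 1) and 0.012 on log2(TPM + 0.1), and with 1 library left out Cdk1 ran from -0.043 to 0.059 and Cdkn1a from -0.020 to 0.11. Cdkn1a in LPS with ApoA-I against ApoA-I was -0.048 with library totals, -0.12 on log2(TPM + 1) and -0.12 on log2(TPM + 0.1), and against Control -0.0027 on both TPM scales. For Myc against ApoA-I the call was lost on both TPM scales, for Cdkn1a against ApoA-I and against Control with library totals and on both TPM scales, and for the Mki67 interaction on log2(TPM + 1). The cause was not tested. Deviations of same-numbered libraries correlated at r = -0.179 to 0.176 over 24 pairs, and those of other pairs at -0.290 to 0.204. With a replicate block 469 genes were called for ApoA-I against Control and 4808 for the interaction, and no member's call changed. The fit to the compared groups alone was not possible for the interaction, which needs all 4. Cdk1 with LPS rests on 11 to 19 counts per library, the lowest of the 8 genes.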
